A study of Mus musculus with 2 samples.

Results

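The enzymes and carriers that take glucose through glycolysis, gluconeogenesis and glycogen, with fructose entry and the pyruvate dehydrogenase step, were followed through 43 genes of the 43346 mouse genes in the deposited gene tables, 21474 of them protein-coding. The genes were chosen by symbol, matched to their identifiers through the GENCODE annotation, and all 43 were found. The samples were 2 libraries of total RNA longer than 200 nucleotides from the livers of 8-week-old adult C57BL/6J mice, an inbred strain, with no treatment and no feeding state named in the labels. They form a single group, numbered replicate 1 and replicate 2. The labels give each its own biosample but the same donor identifier, and the sex of the animals was not collected, so the spread between the libraries may be technical. With 1 group there is no test between conditions, and no p-value is given.

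The liver keeps blood glucose steady by running opposed pathways in the same tissue. After a meal it takes up glucose and stores it as glycogen or breaks it down to pyruvate. In fasting it releases glucose from glycogen and makes it anew from lactate, glycerol and amino acids. The steps of glycolysis that are in effect irreversible are bypassed in gluconeogenesis by separate enzymes, and many steps have several isozymes encoded by different genes, of which hepatocytes typically use a liver form.

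Endogenous genes received 83816487 expected counts in replicate 1 and 71068191 in replicate 2. Levels are given as TPM, which is counts per unit of length scaled to a fixed total, over protein-coding genes alone, because these held only 12.2% of all endogenous TPM in replicate 1 and 16.4% in replicate 2. A level is thus a share of messenger RNA and not an amount per cell. On this scale a value moves in steps of 0.0823 TPM in replicate 1 and 0.0614 TPM in replicate 2, the last printed digit of the deposited values. The 6 hepatocyte markers, such as the albumin gene Alb, summed to 78330 TPM in replicate 1 and 93801 TPM in replicate 2, and all 6 were detected in both. In bulk tissue, fewer cells of a type and less RNA per cell cannot be told apart. Markers of other cells differed between the libraries: 7 skeletal muscle markers had 1972 counts in replicate 1 and 15 in replicate 2, with 4 of them at 0 in replicate 2. The 7 pancreatic acinar markers summed to 897.8 TPM in replicate 1 and 233.0 TPM in replicate 2, and the 6 adrenal cortex markers to 1.48 TPM in replicate 1 and 84.7 TPM in replicate 2. Their part in the differences between libraries given below was not tested unless a value bears on it.

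Nearly the whole set was expressed. Of the 43 genes, 41 reached 1 TPM in both libraries, against 51% of all protein-coding genes, and 16 reached 100 TPM in both, against 5.02%. The exceptions at 1 TPM were Hk2 and Pck2, each just below it in replicate 1. With 1 TPM taken over all endogenous genes, 33 of the 43 passed in both libraries. At the deposited FPKM of 1 there were 39, and at an expected count of 10 all 43. The shares of all genes under these other thresholds are not given. By mean level, 3 genes stood above 1000 TPM, namely Pck1, Fbp1 and Gapdh. A further 16 lay between 100 and 1000 TPM, 13 between 10 and 100 TPM and 11 between 1 and 10 TPM. The level of Gapdh includes models shorter than 1000 nucleotides, which held 66.8% of its TPM in replicate 1 and 59.9% in replicate 2. Such models also held 53.3% and 46.5% of Eno1 TPM, and 29.8% and 27.9% of Tpi1 TPM, in replicates 1 and 2. Those of Gapdh and Eno1 are also part of the lower glycolysis sum below, and those of Tpi1 of the upper glycolysis sum. Together the set held 1.07% ± 0.0155 of protein-coding TPM (SD, n = 2). By role, the gluconeogenic genes summed highest, at 4353 ± 333 TPM, followed by lower glycolysis at 2591 ± 306 TPM. Fructose and sorbitol genes summed to 1337 ± 97.3 TPM and glycogen genes to 1022 ± 237 TPM. Upper glycolysis, with the most genes of any role, summed to 717.3 ± 43.3 TPM. Some hexokinase and aldolase genes are not analysed here and are not part of that sum.

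**Figure D1:**
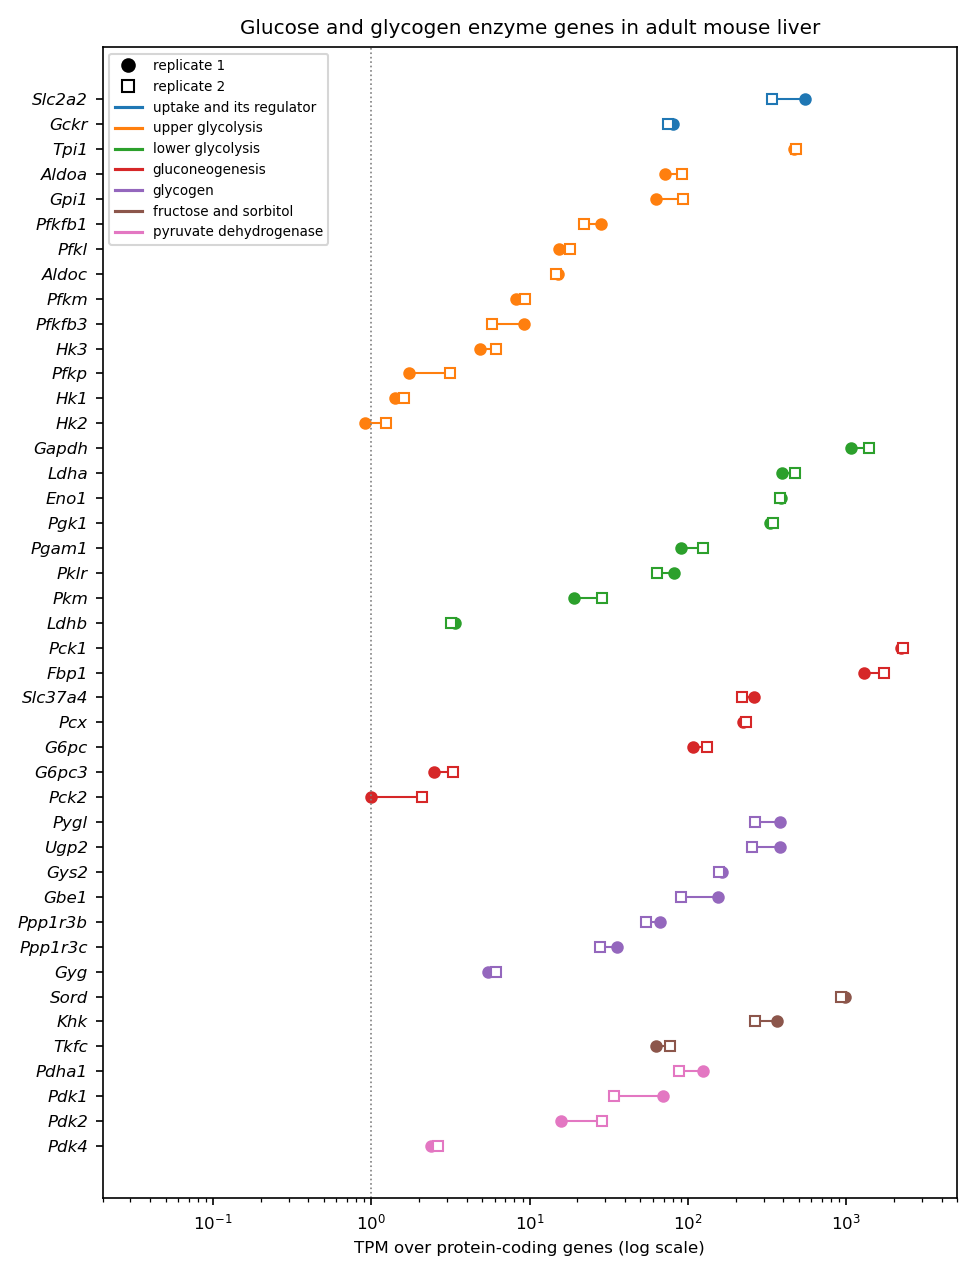
Level of each of the 43 genes in replicate 1 (filled circles) and replicate 2 (open squares) on a log axis of TPM over protein-coding genes, grouped by role (colour) and ordered by mean within a role; the dotted line marks 1 TPM. The genes span from Hk2, at 0.906 and 1.23 TPM in replicates 1 and 2, to Pck1, at 2228 and 2268 TPM.

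Glucose enters and leaves hepatocytes through the transporter GLUT2, encoded by Slc2a2 (ENSMUSG00000027690.9; mm10, chromosome 3, 28697903 to 28731359, plus strand). Slc2a2 stood at 546.9 TPM in replicate 1 and 339.3 TPM in replicate 2. It supplied 97.9% ± 0.802 of the summed TPM of the 4 transporter genes compared (SD, n = 2). Slc2a1, the transporter of the blood-brain barrier and many other tissues, averaged 7.92 ± 0.608 TPM. Slc2a3, the neuronal form, and Slc2a4, the insulin-responsive form of muscle and fat, both stayed under 1 TPM. Gckr, which encodes a protein that binds a liver hexokinase in the nucleus and inhibits it, had 80.6 TPM in replicate 1 and 75.1 TPM in replicate 2.

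The hexokinases that phosphorylate glucose in other tissues summed lowest of the 16 isozyme steps compared, at 7.16 TPM in replicate 1 and 8.97 TPM in replicate 2. Hk1, the form of brain and red cells, had 1.40 and 1.60 TPM in replicates 1 and 2, from 172 and 177 counts. Hk2, the form of muscle and fat, had 0.906 and 1.23 TPM. Hk3, known from myeloid cells, was the highest of the 3, at 4.86 and 6.14 TPM, and made up 68.2% ± 0.479 of their sum. The 7 macrophage markers, which include genes of the resident Kupffer cells, summed to 402.4 TPM in replicate 1 and 336.6 TPM in replicate 2, and their part in the Hk3 level was not tested. Hkdc1, a further hexokinase gene, had 17 counts in replicate 1 and 3 in replicate 2. The remaining hexokinase genes are not analysed here.

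Beyond the hexokinase step, Gpi1, which interconverts glucose and fructose phosphates, had 63.1 TPM in replicate 1 and 92.6 TPM in replicate 2. Phosphofructokinase, the committed step of glycolysis, was low and mixed. Its liver subunit gene Pfkl had 15.3 and 17.9 TPM in replicates 1 and 2, and held 59.7% ± 1.21 of the 3 subunit genes. The muscle subunit gene Pfkm followed at 8.23 and 9.40 TPM, or 31.7% ± 1.22 of the step. Its counts were 843 in replicate 1 and 828 in replicate 2. The skeletal muscle markers had 1972 and 15 counts in the same libraries, and their part in the Pfkm level was not tested. The platelet subunit gene Pfkp had 1.73 and 3.13 TPM.

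The allosteric activator of phosphofructokinase is made and removed by bifunctional enzymes of the Pfkfb family. Pfkfb1, the liver form, had 28.3 TPM in replicate 1 and 21.9 TPM in replicate 2, and held 49.9% ± 1.46 of the family's TPM. Pfkfb2, the heart form, held 34.0% ± 3.52 and Pfkfb3, an inducible and broadly expressed form, 14.7% ± 2.50. In expected counts, not divided by length, Pfkfb2 led with 1835 and 1493 in replicates 1 and 2, against 1553 and 1065 for Pfkfb1. Pfkfb3 itself had 9.14 and 5.77 TPM. Pfkfb4 stayed under 1 TPM in both libraries. No gene held as large a share of phosphofructokinase or of its regulator as Slc2a2 held of transport.

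Among the aldolases analysed, Aldoa, the form of muscle and most tissues, had 71.4 and 91.3 TPM in replicates 1 and 2. Aldoc, the brain form, had 15.1 and 14.6 TPM, so that Aldoa held 84.4% ± 2.60 of their sum. Other aldolase genes are not analysed here. Tpi1, which encodes triosephosphate isomerase and is the highest gene of upper glycolysis in the set, had 467.2 and 482.4 TPM. Its level, with its short models included, was nearly equal in the libraries.

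Lower glycolysis, from triose phosphate to pyruvate and lactate, was carried by a few abundant genes that also serve gluconeogenesis, since most of its steps are reversible. Gapdh, which encodes the dehydrogenase that oxidises triose phosphate, had 1074 TPM in replicate 1 and 1382 TPM in replicate 2. Pgk1, which encodes phosphoglycerate kinase, had 328.1 and 346.5 TPM. Eno1, which encodes enolase, had 385.6 and 383.4 TPM, with its short models included. Pgam1, the phosphoglycerate mutase of most tissues, had 90.2 and 123.4 TPM. The brain enolase gene Eno2 averaged 0.348 ± 0.376 TPM and the muscle enolase gene Eno3 2.94 ± 0.192 TPM, so Eno1 held 99.2% ± 0.149 of enolase TPM and Pgam1 99.5% ± 0.570 of mutase TPM. Eno1b, a near copy of Eno1 that was not part of that sum, averaged 1.44 ± 0.644 TPM. Pgam2, the muscle mutase, had 19 counts in replicate 1 and 3 in replicate 2, which runs with the muscle markers, whose part was not tested. Gapdh, Pgk1 and Pgam1 have near-identical processed copies in the genome. The posterior SD of their counts, a measure of the doubt that reads shared between genes leave, was at most 0.788% of the count.

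Lactate dehydrogenase, which links pyruvate to lactate, was almost wholly the A form. Ldha (ENSMUSG00000063229.10; mm10, chromosome 7, 46841475 to 46855627, plus strand) had 393.9 TPM in replicate 1 and 476.8 TPM in replicate 2. Ldhb, the heart form, had 3.38 and 3.19 TPM, and Ldha held 99.2% ± 0.130 of their sum. Ldhc, the testis form, had 0 counts in both libraries, which allows up to 3 counts in each.

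Pyruvate kinase, the last step of glycolysis, is encoded by Pklr in liver and red cells and by Pkm elsewhere. Pklr (ENSMUSG00000041237.8; mm10, chromosome 3, 89136142 to 89146784, plus strand) had 81.4 TPM in replicate 1 and 64.0 TPM in replicate 2. Pkm (ENSMUSG00000032294.12; mm10, chromosome 9, 59656368 to 59679375, plus strand) had 19.0 and 28.4 TPM. Pklr thus held 81.1% of pyruvate kinase TPM in replicate 1 and 69.2% in replicate 2, the least even of the shares led by a liver form. A 349-nucleotide model of Pklr adds to both values: it was given 20.3% of Pklr TPM in replicate 1 and 43.6% in replicate 2 on the strength of 87.9 and 136.0 counts out of 6773 and 3268. Without transcripts shorter than 1000 nucleotides the mean Pklr share was 66.3% ± 15.5.

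The 2 promoters of Pklr and the 2 alternative exons of Pkm are textbook cases of tissue choice, and the transcript tables bear on both. The transcript that starts at the downstream, liver first exon of Pklr received 6672 counts in replicate 1 and 3122 in replicate 2. The transcript that starts 430 nucleotides upstream, at the red-cell first exon, received 11.8 and 5.65 counts. The 6 erythroid markers summed to 1081 TPM in replicate 1 and 1602 TPM in replicate 2, and the part of red-cell RNA in these counts was not tested. For Pkm, the transcript with the M2 exon, typical of proliferating and many adult tissues, held 85.7% of the gene in replicate 1 and 93.7% in replicate 2. The transcript with the M1 exon of muscle and brain held 14.3% and 6.27%. It was taken as the M1 form by its identifier, since its length in the files, 2432 nucleotides and the same as that of the M2 transcript, differs from that in GENCODE M21. Replicate 1, the library with skeletal muscle markers, had the higher M1 share, with 232.1 counts against 130.8 in replicate 2, and the part of muscle RNA in that was not tested.

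The alternative exons are shown because they are what separates the Pkm forms. Each is 167 nucleotides long, and 372 nucleotides lie between them. The M2 exon lies downstream, at chr9:59675568-59675734, and the M1 exon at chr9:59675029-59675195 (GENCODE M21 transcripts on mm10, plus strand). Aligned base by base, 64 positions differ and 61.7% are identical. Capitals mark the differing positions.
Pkm M2 exon: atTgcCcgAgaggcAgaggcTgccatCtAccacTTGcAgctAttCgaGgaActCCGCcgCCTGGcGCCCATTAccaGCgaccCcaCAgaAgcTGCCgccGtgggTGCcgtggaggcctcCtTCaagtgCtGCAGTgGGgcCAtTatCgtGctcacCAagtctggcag
Pkm M1 exon: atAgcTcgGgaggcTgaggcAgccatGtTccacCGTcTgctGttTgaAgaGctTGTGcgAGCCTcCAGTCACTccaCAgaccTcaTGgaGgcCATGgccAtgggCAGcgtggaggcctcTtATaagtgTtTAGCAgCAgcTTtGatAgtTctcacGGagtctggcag

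The promoters of Pklr and Ldha stand for the contrast between the liver form of an enzyme and a form used in many tissues. Each window is the 250 bases before the RefSeq start (GRCm38.p6, the same assembly as mm10), at chr3:89136373-89136622 for Pklr and chr7:46845554-46845803 for Ldha, both on the plus strand. Capitals mark matches, on either strand, to 4 motifs that were searched: TATAAA of the TATA box, CACGTG of the E-box, ACGTCA of the cyclic AMP response element, and GTTAAT, a partial site of the liver factor HNF1. Pklr holds TATAAA beginning 31 bases before the start. Ldha holds CACGTG at 145 and 48 bases before the start, and a run in which ACGTCA on one strand overlaps its match on the other. The leading GENCODE model of Pklr begins 51 bases before the RefSeq start, so the end of its window lies inside that model. That of Ldha begins 35 bases from the RefSeq start, and whether before or after it was not recorded.
Pklr: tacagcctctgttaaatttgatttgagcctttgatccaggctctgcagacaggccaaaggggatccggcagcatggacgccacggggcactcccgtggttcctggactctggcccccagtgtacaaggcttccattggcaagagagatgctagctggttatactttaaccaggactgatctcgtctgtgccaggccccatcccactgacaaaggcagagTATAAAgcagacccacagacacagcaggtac
Ldha: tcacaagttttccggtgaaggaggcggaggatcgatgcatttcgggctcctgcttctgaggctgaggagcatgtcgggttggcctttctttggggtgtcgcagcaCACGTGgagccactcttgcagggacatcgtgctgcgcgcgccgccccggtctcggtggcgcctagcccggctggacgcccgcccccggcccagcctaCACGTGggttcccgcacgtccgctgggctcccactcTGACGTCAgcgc

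The gluconeogenic genes included the 2 most abundant of the set. Pck1 (ENSMUSG00000027513.7; mm10, chromosome 2, 173153048 to 173159273, plus strand) encodes the cytosolic phosphoenolpyruvate carboxykinase, which is induced in fasting by glucagon acting through cyclic AMP. It had 2228 TPM in replicate 1 and 2268 TPM in replicate 2, ranked 55th and 54th among protein-coding genes, from 197296 and 171918 counts. Pck2, the mitochondrial form, had 0.988 and 2.09 TPM, so Pck1 held 99.9% ± 0.0337 of the step. Fbp1 (ENSMUSG00000069805.6; mm10, chromosome 13, 62864753 to 62888282, minus strand), the fructose bisphosphatase of liver and kidney, had 1296 and 1734 TPM, ranked 101st and 68th. Fbp2, the muscle form, had 4 counts in replicate 1 and 1 in replicate 2.

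The genes that act only at the ends of gluconeogenesis had lower levels than Pck1 and Fbp1, which act between them. Pcx, the mitochondrial pyruvate carboxylase that starts the path, had 220.8 TPM in replicate 1 and 230.7 TPM in replicate 2. G6pc (ENSMUSG00000078650.2; mm10, chromosome 11, 101367561 to 101377903, plus strand), the catalytic subunit of glucose 6-phosphatase that releases free glucose, had 108.1 and 132.4 TPM. Slc37a4, which carries glucose 6-phosphate into the endoplasmic reticulum to that enzyme, had 261.5 and 217.7 TPM. G6pc3, the ubiquitous phosphatase, had 2.47 and 3.26 TPM, and G6pc held 97.7% ± 0.118 of the pair. G6pc2, the form of pancreatic islets, had 0 counts in both libraries, which again allows up to 3 in each. Of the carriers related to Slc37a4, Slc37a1 averaged 0.995 ± 0.243 TPM and Slc37a2 1.72 ± 0.00658 TPM.

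The promoter windows of Pck1 and G6pc are shown because both genes are known to be under hormonal control. They lie at chr2:173152823-173153072 and chr11:101367466-101367715 on the plus strand (RefSeq, GRCm38.p6), and capitals mark the same motifs as above. The GENCODE model of G6pc begins 155 bases before the RefSeq start and that of Pck1 25 bases before it, so the end of each window lies inside the GENCODE model. The Pck1 window holds ACGTCA beginning 91 bases before the start and GTTAAT on the other strand beginning 192 bases before it. The G6pc window holds TATAAA 29 bases and GTTAAT 221 bases before the start.
Pck1: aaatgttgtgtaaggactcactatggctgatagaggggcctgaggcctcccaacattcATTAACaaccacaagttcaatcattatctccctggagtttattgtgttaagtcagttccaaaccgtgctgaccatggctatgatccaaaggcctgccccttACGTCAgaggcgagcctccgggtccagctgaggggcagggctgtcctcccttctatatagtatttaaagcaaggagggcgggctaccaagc
G6pc: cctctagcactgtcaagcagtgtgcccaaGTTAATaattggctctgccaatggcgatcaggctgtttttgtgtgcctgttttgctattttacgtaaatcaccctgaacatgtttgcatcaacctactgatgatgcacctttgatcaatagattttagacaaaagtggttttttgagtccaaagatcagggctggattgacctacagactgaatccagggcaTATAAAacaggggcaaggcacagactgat

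Set against the glycolytic enzymes they bypass, the gluconeogenic genes were higher at each step compared. Fbp1 exceeded the summed phosphofructokinase genes 51.3-fold in replicate 1 and 56.9-fold in replicate 2, a log2 ratio of 5.76 ± 0.107 (SD, n = 2). Pck1 and Pck2 exceeded Pklr and Pkm 22.2-fold and 24.6-fold, a log2 ratio of 4.55 ± 0.104. G6pc and G6pc3 exceeded Hk1, Hk2 and Hk3 15.4-fold and 15.1-fold, a log2 ratio of 3.93 ± 0.0209, with the limit that other hexokinase genes are not part of that sum. These are ratios of messenger RNA per length, and enzymes differ in activity per protein. Pcx exceeded Pdha1, the competing entry of pyruvate into the citric acid cycle, by 1.77-fold in replicate 1 and 2.63-fold in replicate 2. That ratio, 1.11 ± 0.40 on the log2 scale, varied more between the libraries than the other 3.

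The glycogen genes run from activated glucose to the stored polymer and back, and all 7 passed 1 TPM in both libraries. Ugp2, which makes the UDP-glucose that glycogen is built from, had 380.5 TPM in replicate 1 and 253.4 TPM in replicate 2. Gyg, the glycogenin primer, had 5.43 and 6.14 TPM. Gys2, the liver glycogen synthase, had 164.7 and 157.2 TPM and held 99.3% ± 0.0647 of synthase TPM over the muscle form Gys1. Gbe1, the branching enzyme, had 155.5 and 90.7 TPM. Pygl, the liver glycogen phosphorylase that breaks glycogen down, had 381.3 and 265.0 TPM.

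Pygl held 98.1% ± 0.596 of phosphorylase TPM, over the brain form Pygb at 4.91 ± 0.780 TPM and the muscle form Pygm at 1.13 ± 0.382 TPM. Gys2 stood below Pygl in both libraries, 2.31-fold in replicate 1 and 1.69-fold in replicate 2. Of the subunits that target protein phosphatase 1 to glycogen and so favour its synthesis, Ppp1r3b, the main liver form, had 66.7 and 54.2 TPM. Ppp1r3c had 35.7 and 27.7 TPM, and both together exceeded each of the other 4 genes of the family, Ppp1r3a, Ppp1r3d, Ppp1r3e and Ppp1r3g, in both libraries. Ppp1r3b held 58.2% ± 2.00 and Ppp1r3c 30.5% ± 2.08 of the family's TPM. Ppp1r3a, the muscle form, had 51 counts in replicate 1 and 3 in replicate 2, beside the muscle markers given above, whose part was not tested.

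The entry of fructose and sorbitol was represented by abundant genes. Sord, which oxidises sorbitol to fructose, had 977.8 TPM in replicate 1 and 924.8 TPM in replicate 2. It was the highest of the set after Pck1, Fbp1 and Gapdh, with the short models of Gapdh included. Khk, the ketohexokinase that phosphorylates fructose, had 365.4 and 265.8 TPM. Tkfc, which phosphorylates the glyceraldehyde that fructose breakdown yields, had 62.3 and 77.4 TPM. Slc2a5, the intestinal fructose transporter, averaged 7.23 ± 0.205 TPM.

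The pyruvate dehydrogenase complex commits pyruvate to oxidation, and its kinases switch it off by phosphorylation. Pdha1, the subunit that is phosphorylated, had 124.4 TPM in replicate 1 and 87.7 TPM in replicate 2. Of its partners in the complex, Pdhb averaged 134.1 ± 23.9 TPM, Dld 107.2 ± 15.1 TPM, Dlat 36.6 ± 1.72 TPM and Pdhx 18.5 ± 4.21 TPM. Of the steps compared, the kinases had the shares farthest apart between the libraries. Pdk1 had 69.5 TPM in replicate 1 and 33.8 TPM in replicate 2, whereas Pdk2, the widespread kinase, had 15.8 and 28.4 TPM. Pdk1 held 78.8% of kinase TPM in replicate 1 and 51.6% in replicate 2, and Pdk2 held 17.9% and 43.4%. Pdk4, the kinase known to be induced by fasting, had 2.39 and 2.64 TPM, from 298 and 284 counts. Pdk3 stayed under 1 TPM in both. The summed TPM of Pdk1, Pdk2 and Pdk4 over Pdha1 gave a log2 ratio of -0.47 ± 0.0499, which turned to 0.046 in counts not divided by length.

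Over 16 steps, the liver or broadly used form named for the step held over 97% of TPM in 9: transport, phosphoenolpyruvate carboxykinase, glucose 6-phosphatase, fructose bisphosphatase, phosphorylase, glycogen synthase, lactate dehydrogenase, enolase and mutase. The mixed steps were phosphofructokinase and its regulator, pyruvate kinase, the phosphatase-targeting subunits, the analysed aldolases and hexokinases, and the pyruvate dehydrogenase kinases.

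**Figure D2:**
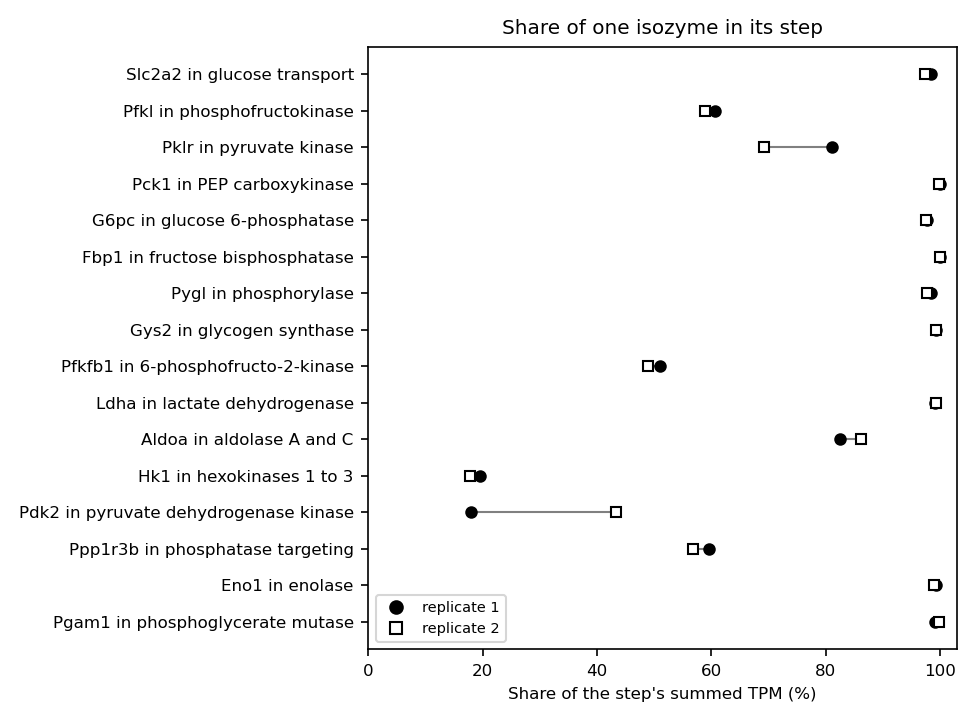
Share of a named isozyme in the summed TPM of its step (percent) in replicate 1 (filled circles) and replicate 2 (open squares), for 16 steps. Shares of Slc2a2, Pck1, G6pc, Fbp1, Pygl, Gys2, Ldha, Eno1 and Pgam1 lie above 97% in both libraries, while those of Pklr (81.1% and 69.2%) and Pdk2 (17.9% and 43.4%) are the farthest apart.

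How far the libraries differed was described by the log2 ratio of replicate 1 over replicate 2, from CPM (counts scaled to the library total, here adjusted by TMM, the trimmed mean of M-values) with 0.5 added. This is a comparison of 1 library with 1 library and has no replicate check. Of the 43 genes, 1 lay over 2-fold apart, against 2.74% of 12357 genes measured. It was Pdk1, 2.21-fold higher in replicate 1, the direction of 1.59% of genes. None was over 2-fold higher in replicate 2, against 1.15%. Over 1.5-fold, 10 of the 43 lay apart, against 10.6%. Of these, 8 were higher in replicate 1, against 5.16%, and 2 in replicate 2, against 5.43%. The members' median ratio was 0.050, beside 0.011 for all genes measured, and 24 of 43 were higher in replicate 1, against 51.3%. Under spike-in scaling, 14 of 43 were higher in replicate 1, and in the ratio of TPM values 19, so the sign of the members' median rests on the scaling.

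The 8 genes over 1.5-fold higher in replicate 1 were Pdk1, Pklr at 1.94-fold, Gbe1 at 1.84-fold, Slc2a2 at 1.77-fold, Ugp2 at 1.67-fold, Pygl at 1.56-fold, Khk at 1.53-fold and Pdha1 at 1.53-fold. The 2 over 1.5-fold higher in replicate 2 were Pdk2 at 1.66-fold and Pck2 at 1.65-fold. The difference in Pklr is smaller in the TPM values given above, which include its short model. Of the glycogen genes, 6 of 7 were higher in replicate 1, and their median ratio was 0.49 on the log2 scale. Gyg was the exception, at -0.10. Gluconeogenic genes had a median of -0.16, with 3 of 7 higher in replicate 1, and Pck1, the most abundant, at 0.11. Over the 5 of them with a mean of 10 TPM or more, the median turned to 0.067. Upper glycolysis had a median of -0.083 and lower glycolysis of -0.064.

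Base composition moved with these ratios. Across all genes, the median ratio was 0.22 in the decile of genes lowest in GC content and -0.21 in the highest decile. Glycogen genes had a median GC content of 46.2%, beside 52.8% for upper glycolysis and 53.0% for gluconeogenesis. With the median of each GC decile subtracted, the glycogen genes' median was 0.42 with 6 of 7 still above 0, and that of gluconeogenesis -0.19. Upper glycolysis became 0.052, with 8 of 12 above 0 in place of 5. Pklr then reached 1.06 and joined Pdk1, at 1.08, beyond 2-fold. Scaling by the spike-in total moved the median of all genes to -0.25 and that of the glycogen genes to 0.21. Relative to the median of all genes, the glycogen genes lay between 0.42 and 0.52 under each scaling, filter and pseudocount tried.

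**Figure D3:**
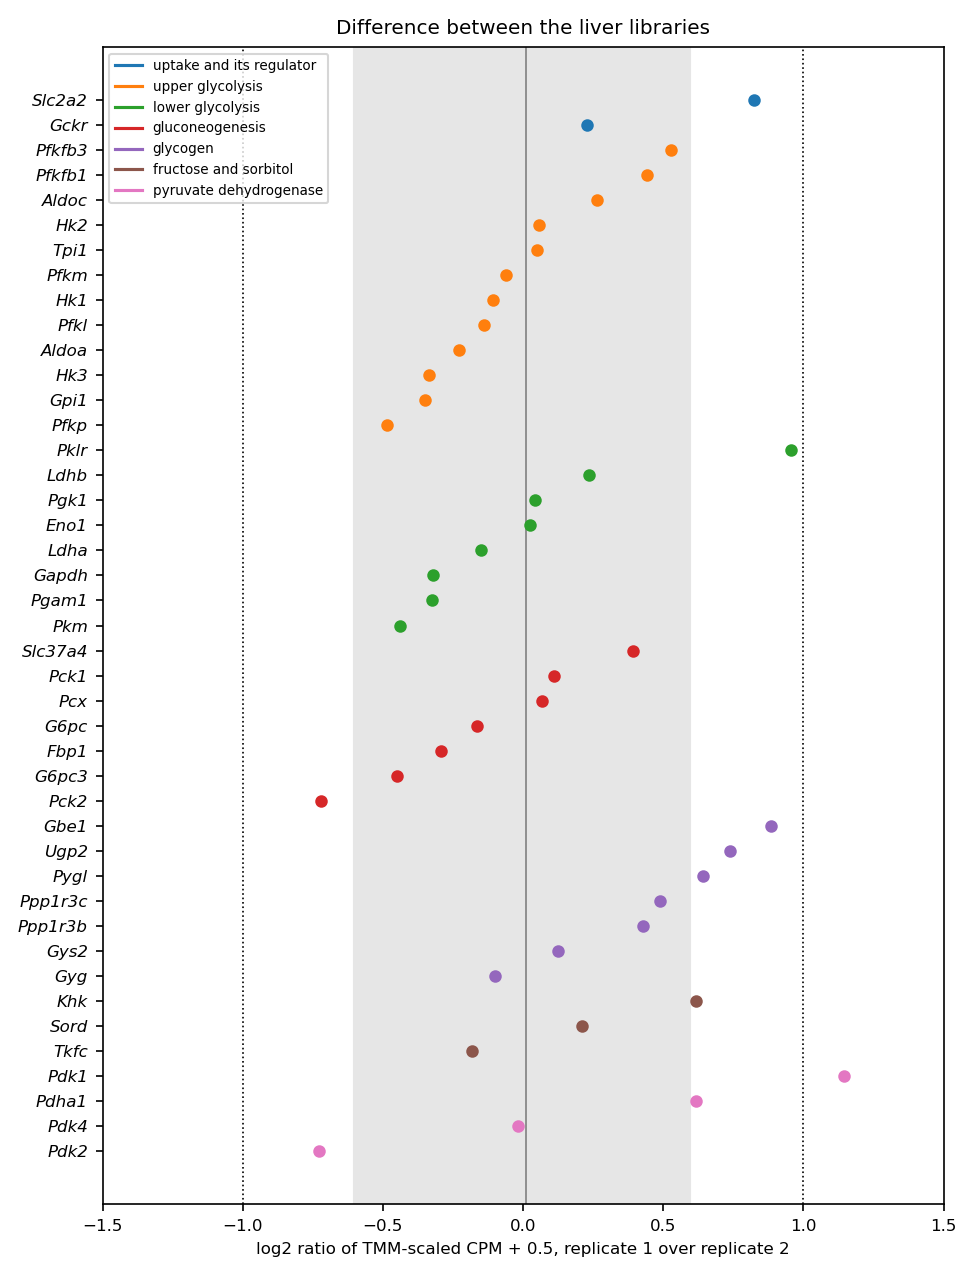
Log2 ratio of replicate 1 over replicate 2 (TMM-scaled CPM plus 0.5) for the 43 genes, grouped by role; the grey band holds the central 90% of all 12357 genes measured, from -0.60 to 0.60, the grey line is their median and dotted lines mark 2-fold. Pdk1 lies beyond 2-fold, and 6 of 7 glycogen genes lie right of 0.

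Within a gene, the deposited transcript table gives the share of each transcript in percent. Of the 41 genes at 1 TPM in both libraries, 40 had the same leading transcript in both, against 91.3% of protein-coding genes at that level, and Pfkfb3 was the exception. The leading transcript held a median of 90.4% ± 0.488 of the gene's TPM, beside 84.5% ± 0.619 for protein-coding genes, and over 90% in both libraries in 19 of the 41. Such shares can fall with the number of annotated transcripts. Genes with a single model, such as G6pc, Gckr, Slc37a4, Sord and Tkfc, stand at 100% by construction.

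Several members use alternative starts. The leading transcript held 83.0% of Ugp2 in replicate 1 and 73.5% in replicate 2, and the transcript that starts 724 nucleotides upstream held 14.7% and 25.5%. The upstream start of Pcx held 75.9% and 80.4%, with the rest at a start that GENCODE M21 places 83874 nucleotides downstream. The length of that second model is 4125 nucleotides in the files and 4044 in M21, so the start may not be that of the model quantified. The leading transcript of Pfkfb1 held 63.7% and 65.3%, and a transcript that starts 4557 nucleotides upstream held 5.21% and 4.81%. For each of these genes the same start led in both libraries. The ketohexokinase models of the files could not be matched by length to the reference annotation, so its alternative exons are not analysed here.

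Some enzymes were nearly a single messenger RNA and others were spread over several models. The leading transcript held 99.1% ± 0.0283 of Ldha, 99.0% ± 0.247 of Fbp1, 98.6% ± 0.742 of Pygl and 98.4% ± 0.919 of Slc2a2 (SD, n = 2). It held only 36.7% ± 1.56 of Gbe1 and 48.3% ± 4.78 of Eno1. In counts, that Eno1 transcript held 73.8% of the gene in replicate 1 and 78.4% in replicate 2. Models annotated as retaining an intron, which total RNA can hold as unfinished transcripts, took part of several genes. They held 24.8% of Tpi1 TPM in replicate 1 and 23.8% in replicate 2, and 18.9% and 19.8% of Gbe1. In Pck1 they held 11.4% and 12.2%, and in Eno1 15.3% and 10.9%. Among these genes the share was highest in Tpi1 in both libraries, then Gbe1, whereas Eno1 and Pck1 changed places between the libraries. It was higher still in 2 genes of lower level, Pfkfb3 at 46.4% and 36.2% and Pfkp at 42.9% and 25.5%. Short models raise these TPM shares. A 446-nucleotide model had 24.4% and 23.5% of Tpi1 TPM from 5.38% and 5.25% of its counts. In Gbe1, a 658-nucleotide model had 11.9% and 9.92% of TPM from 2.17% and 1.82% of counts. In Pfkfb3, models of 614 and 447 nucleotides had 24.6% and 16.8% of TPM in replicate 1 from 35 and 14 counts. In Hk1, the leading start held 53.3% and 41.7% and a second start, 17820 nucleotides downstream, 32.0% and 33.9%, from at most 98.1 counts each.

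In 3 genes the leading transcript was annotated as noncoding or as a target of nonsense-mediated decay. A 483-nucleotide processed transcript held 51.3% ± 0.962 of Gapdh TPM but 22.0% of its counts in replicate 1 and 21.5% in replicate 2. A coding model of 1420 nucleotides took 61.5% and 71.0% of the counts. A transcript annotated to nonsense-mediated decay held 83.8% and 78.8% of Pgk1. It shares all but 3 of its 11 exons with the coding model, so the division of reads between them rests on those exon ends. In Hk3, a transcript with the same annotation held 34.9% and 48.8%, from 185.8 and 283.1 counts. The high TPM of short models raises gene levels, and the values without them are given with the other alternatives.

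Promoter windows of 250 bases were found in the RefSeq table for 41 of the 43 genes. Gys2 and Ppp1r3b were not matched. In 31 of the 41, the bases just after the RefSeq start were found in a transcript of the gene. A window need not belong to the leading transcript. The RefSeq start used lies 17941 bases from the start of that transcript in Hk1, 274 in Khk and 244 in Eno1. CpG content is the observed number of CpG dinucleotides over the number expected from the C and G content. Over the 41 windows its median was 0.618, beside 0.373 over all 32817 windows of the table. Of the 41, 12 lay below the median of all windows. They were Pfkfb1 at 0.0831, Slc37a4 at 0.107, Slc2a2 at 0.150, Aldoc at 0.165, G6pc at 0.172, Tkfc at 0.236, Pklr at 0.271, Pdk4 at 0.278, Fbp1 at 0.297, Pck1 at 0.310, Gckr at 0.323 and Pck2 at 0.361. The highest were Ldha at 0.886, Pgam1 at 0.860 and Hk2 at 0.848.

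In 3 isozyme pairs, picked after the values were seen, the liver form had the lower CpG content. Pklr had 0.271 and Pkm 0.763, G6pc 0.172 and G6pc3 0.694, and Pfkfb1 0.0831 and Pfkfb3 0.617. Among the phosphofructokinase genes the order ran the other way with Pfkl at 0.595 and Pfkm at 0.380, but not with Pfkp, at 0.679. Pck1 and Pck2 lay close together. Glycogen genes, at a median of 0.670 over the 5 with a window, all lay above the median of all windows. The genes over 1000 TPM had 0.297, 0.310 and 0.422, and Sord, at 951.3 TPM on average, had 0.730.

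**Figure D4:**
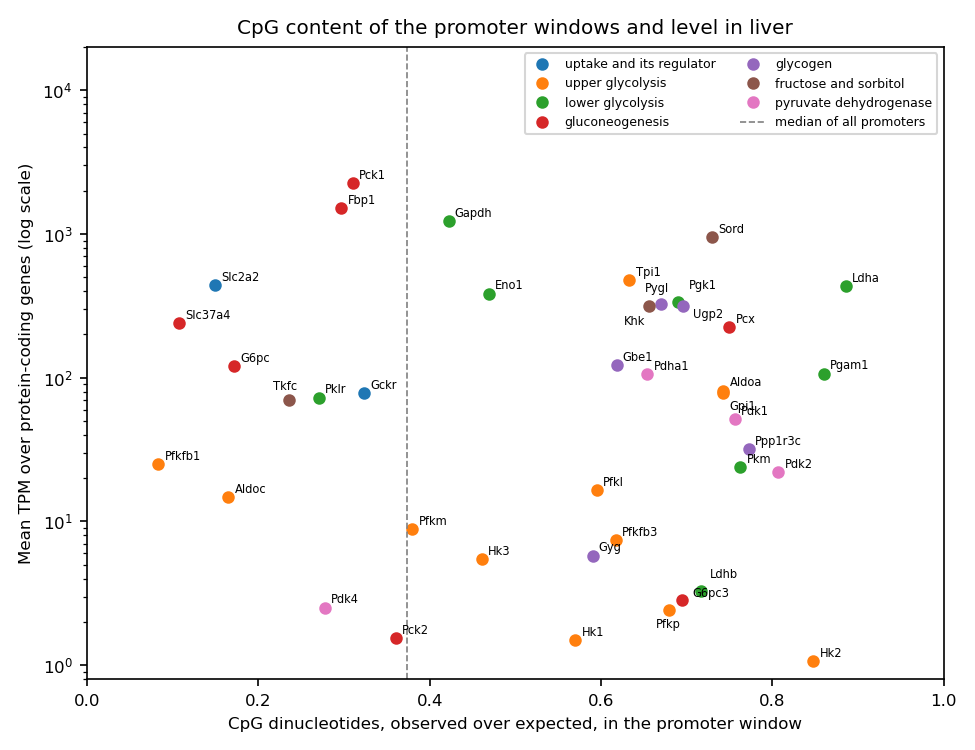
CpG content (observed over expected) of the 250 bases before the RefSeq start of 41 genes against their mean TPM over protein-coding genes on a log axis, coloured by role; the dashed line is the median of all windows of the table, 0.373. Left of the line lie 12 genes, among them Slc2a2, G6pc, Slc37a4, Pck1 and Fbp1.

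The motif counts are descriptions of letters in these windows and not of binding. TATAAA was found in 3 of 41 windows (7.32%), against 12.4% of all windows, and CACGTG in 7 (17.1%), against 6.02%. ACGTCA was found in 3 (7.32%), against 6.46%, and GTTAAT in 6 (14.6%), against 6.44%. CACGTG is the sequence recognised by helix-loop-helix leucine zipper factors such as Myc and USF. CACGTG and ACGTCA each hold a CpG. The members' windows had a median GC content of 58.8%, against 52.4% of all windows, and a CpG content of 0.618, against 0.373. The part of base composition in the motif counts was not tested.

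Of 80 further genes of the pathway, all matched, 63 reached 1 TPM in both libraries, against 51% of all protein-coding genes. Of the same 80, 12 reached 100 TPM in both, against 5.02%. The 3 highest were Aldh2, an aldehyde dehydrogenase, at 878.2 TPM in replicate 1 and 983.4 TPM in replicate 2, and the mitochondrial pyruvate carrier genes Mpc1 at 681.6 and 633.7 TPM and Mpc2 at 279.2 and 256.0 TPM. Among 65 that passed the filter for ratios, 42 were higher in replicate 1, against 51.3% of all genes measured, and 23 in replicate 2. None was over 2-fold apart, against 2.74%, and the median log2 ratio was 0.078. Regulators of the pathway varied in level. Mlxipl, the carbohydrate-responsive factor ChREBP, averaged 115.6 ± 18.4 TPM, and Gcgr, the glucagon receptor, 126.0 ± 7.30 TPM. Insr averaged 42.4 ± 8.10 TPM and Mlx 30.8 ± 1.13 TPM. Lower still were Crtc2 at 8.02 ± 2.73 TPM, Foxo1 at 7.65 ± 2.55 TPM and Ppargc1a at 5.44 ± 0.821 TPM.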

How the data were processed

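The expected counts, TPM, FPKM and transcript percentages were deposited by the authors for each library separately, against mm10 and GENCODE M4, per the submitters' notes. The aligner was not given in the sources used here, nor was the quantifier. Expected counts are estimates of fragments per gene with no normalization, per the file headers. TPM and FPKM were scaled to length and library by the authors, and FPKM was used only as an alternative threshold. The deposited percent is the share of a transcript in its gene's TPM.

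Of the 43346 gene identifiers, 42462 matched GENCODE M21, which gave symbols, classes and coordinates. TPM was rescaled to the same total over protein-coding genes alone. Counts were rounded and scaled by TMM in edgeR 4.0.16 (factors 0.950 for replicate 1 and 1.05 for replicate 2), with DESeq2 1.42.0 size factors as an alternative. Ratios are log2 of CPM plus 0.5, which understates low genes, for genes with a mean TPM of 1 or more and a mean count of 10 or more. The code that counts 2-fold differences was checked on simulated data with counting error alone, which does not test the count reported here. Software was R 4.3.3 and, under Python 3.11.15, pandas 2.3.3, numpy 2.4.6 and matplotlib 3.10.9.

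The members, lists, steps and pairs were chosen with earlier results of these data known. Every member is named, as is any further listed gene in a step with a member, and the 3 highest others. Gcgr, Mlxipl, Slc2a5, Insr, Mlx, Crtc2, Foxo1 and Ppargc1a were chosen after their values were seen.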

Additional observations from a re-analysis of the deposited data

How the results depend on the processing

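No paired analysis was possible because both libraries form a single group. Across the results and settings tried, 112 values stayed within their spread or within 1.5 times the main count, and 31 did not. The 112 include 25 values without replicate 1 and 25 without replicate 2. For a mean, leaving out either replicate gives the other library's value, which lies within 1 SD by construction. By expected counts, not divided by length, shares became 64.2% for Pfkl, 98.9% for G6pc, 97.5% for Pygl, 99.1% for Gys2, 35.4% for Pfkfb1, 99.4% for Ldha, 80.1% for Aldoa, 22.7% for Hk1 and 71.0% for Ppp1r3b; opposing log2 ratios became 4.45 for Fbp1 over phosphofructokinase, 4.78 for the carboxykinases over pyruvate kinase, 1.71 for Pcx over Pdha1 and 3.62 for glucose 6-phosphatase over the hexokinases. The ratio of the kinases over Pdha1 turned to 0.046, so their order rests on division by length. By counts over annotated length, the G6pc share was 97.9% and Fbp1 over phosphofructokinase 5.63. Without transcripts shorter than 1000 nucleotides, a setting added after the data were seen, shares were 66.3% for Pklr, 98.2% for G6pc, 20.95% for Hk1 and 98.6% for Eno1, and the carboxykinase and glucose 6-phosphatase ratios were 4.93 and 4.26. The summed share of the set was 1.38% without those transcripts, 0.153% of endogenous TPM, 1.22% of protein-coding counts and 1.18% of protein-coding TPM without mitochondrially encoded genes. The median ratio between libraries reversed to -0.23 under spike-in scaling and to -0.063 as a TPM ratio, where the medians of all genes were -0.25 and -0.11. Also added later, GC correction gave 2 genes over 2-fold apart and a 1.5-fold threshold 10. The leading transcript's median share was 91.6% over the 32 members at 10 TPM or more in both. With 2 libraries, an SD is itself poorly known, and low genes such as Pck2, with 125 counts in replicate 1 and 218 in replicate 2, carry the largest counting error.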
